A study of Mus musculus with 24 samples.

Results

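Mouse bone marrow-derived macrophages (BMDMs) altered in both IkB kinase-related kinases, TBK1 and IKKe, were compared after R837 and without it. The data are the 3 libraries titled TBK1-cKD ∆IKKe with R837 and the 3 titled TBK1-cKD ∆IKKe without it, 6 of the 24 libraries of the series, chosen by their titles alone and called TBK1-cKD IKKe knockout below. BMDMs are macrophages grown in culture from bone marrow cells with the growth factor M-CSF. R837 (imiquimod) is an agonist of the RNA sensor TLR7, a Toll-like receptor, and the treated cultures had it for 8 h. The genotypes used for comparison were TBK1-WT ∆control (TBK1-WT control below), TBK1-cKD ∆control (TBK1-cKD control) and TBK1-WT ∆IKKe (TBK1-WT IKKe knockout), each with 3 untreated libraries and 3 after 8 h of R837. In the submitters' design text cKD stands for a conditional knockout; neither the allele, nor the agent that deletes it, nor the way IKKe was removed is given. Every record carries 1 protocol, which speaks of marrow from wild-type C57BL/6N animals and of 8 h of R837 even for untreated or altered cells, so genotype and treatment rest on titles and genotype labels. By the same text each group was grown from 3 individual mice, 1 library for each, and the ages of the mice are not given. The RNA is bulk RNA from whole cultures, in which fewer cells of a type and less RNA per cell cannot be told apart.

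TLR7 sits in endosomes, where it detects single-stranded RNA and small agonists of the imidazoquinoline class. Through the adaptor MyD88 and the kinases of the IRAK family it activates the canonical IkB kinases IKKa and IKKb, which release NF-kB, and the MAP kinases. TBK1 and IKKe are relatives of these kinases: they phosphorylate IRF3, the factor that switches on interferon beta downstream of other sensors, and they also restrain canonical IkB kinase signalling. N4BP1, named with caspase-8 in the title of the series, is a suppressor of cytokine production that caspase-8 can cleave after Toll-like receptor engagement. In macrophages, agonists of these receptors are known to raise cytokines, chemokines and antimicrobial enzymes, to shift metabolism toward glycolysis and to slow division.

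Levels below are CPM, gene counts scaled to a common library size and corrected by TMM (the trimmed mean of log ratios between libraries), with the replicates in the order 1, 2 and 3. Changes are log2 ratios of R837 over untreated with the standard error (SE) of the edgeR quasi-likelihood fit, and a gene is called when its p, adjusted over the 14681 genes tested, is under 0.05. The sum of gene counts was 34.4, 24.8 and 31.5 M (mega) in the untreated libraries and 32.8, 36.7 and 40.3 M after R837. All 10 markers of BMDMs were among the genes tested, and their summed level was 24300 to 25600 CPM without R837 and 31400 to 34000 CPM with it. Of these 10, 6 rose (60%), 3 fell (30%; Cd68, Lyz2 and Mertk) and Tyrobp was not called. Over all genes tested 31.6% rose and 34.8% fell. Among the 6 that rose, Adgre1, which encodes F4/80, had 2544, 2488 and 2422 CPM without R837 and 5544, 5687 and 4824 CPM with it.

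The transcripts of both altered kinases were present in every library. Tbk1 (ENSMUSG00000020115, chr10:121546455-121586787, GRCm38) had 87.8, 90.7 and 88.5 CPM without R837 and 115, 116 and 136 CPM with it, a log2 change of 0.46 ± 0.07 (edgeR adjusted p = 1.41e-05; 0.08 and not called on total counts without TMM). Ikbke, the gene of IKKe (ENSMUSG00000042349, chr1:131254343-131279606), had 80.6, 76.9 and 81.3 CPM without R837, above the 59 to 59.9 CPM of untreated TBK1-WT control and the 34.5 to 35.9 CPM of untreated TBK1-WT IKKe knockout. Counts per gene do not show an edit that leaves the transcript in place, so neither the Tbk1 values nor the untreated Ikbke values test the label. With R837, Ikbke had 77.7 and 82.7 CPM in replicates 1 and 2, within or just above the untreated range, and 259 CPM in replicate 3. The fitted log2 change of 0.82 ± 0.30 (edgeR adjusted p = 0.0209) rested on replicate 3: without it the change was 0.01 (adjusted p = 0.956). Among the libraries of high Malat1 and Neat1 level, described next, it was 1.72. Without untreated replicate 2 it was 0.79 and not called (adjusted p = 0.0559). In the R837 libraries of TBK1-WT control Ikbke had 406, 220.0 and 233 CPM, and in those of TBK1-cKD control 240, 239 and 248 CPM. In those of TBK1-WT IKKe knockout it had 77, 70.5 and 79.3 CPM. After R837, replicate 3 here thus lay in the range of the genotypes labelled ∆control and above every other library labelled ∆IKKe. Whether its label is right was not tested. Since the transcript of the library labelled R837 replicate 3 goes against the other libraries of its label, the leading genes below are given library by library.

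R837 replicate 3 stood apart from replicates 1 and 2. Malat1 and Neat1, long noncoding RNAs retained in the nucleus, had 533, 469.9 and 519 and 777, 757 and 945 CPM in the untreated libraries. After R837, Malat1 had 51.8, 44.8 and 420.1 CPM and Neat1 36.6, 46.1 and 879.5 CPM, so that replicate 3 was near the untreated libraries and replicates 1 and 2 far below. The fitted change was -1.56 ± 0.68 for Malat1 (-3.40 without replicate 3, and no longer called without any one of the other 5 libraries) and -1.36 ± 0.95 for Neat1 (not called; -4.32 and called without replicate 3). Among the libraries of high level described next, the changes were -0.26 and 0.11. By the mean log2 level of these RNAs, the 24 libraries split into 14 high and 10 low ones. All 10 low ones had R837, so for them this level and the treatment cannot be told apart. The high ones are the 12 untreated libraries, this replicate 3 and replicate 1 of R837-treated TBK1-WT control. A response given among the high libraries thus sets this 1 R837 library against the 3 untreated ones, so only its size is given. Reads that fell outside the counted genes moved with them: their share was 11.33 to 11.69% in the untreated libraries, 8.493 and 8.409% in R837 replicates 1 and 2, and 10.82% in replicate 3. Among 8293 genes with close values in replicates 1 and 2, 296 were 2-fold or more higher in replicate 3 and 5 were 2-fold or more lower (Rps14, Psat1, Asns, Aqp9 and Mamdc2). Of the 296, 271 also stood 2-fold or more above their group in replicate 1 of R837-treated TBK1-WT control. The median gene width of the 296 was 6189.5 bases, against 3366 for the genes compared. With all libraries 101 of the 296 were called lower after R837, and without replicate 3 it was 244. Across genes, replicate 3 correlated with replicates 1 and 2 at r = 0.9761 and 0.9783, with that replicate 1 of TBK1-WT control at 0.975, and with the other R837 libraries at 0.9276 to 0.9667; genes are not independent replicates, so these values only describe. The results below include replicate 3. Where leaving it out, or using the high libraries alone, changed the call of a gene whose log2 change is given below or moved its fold change by 1.5 times or more, that value stands beside it.

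**Figure D1:**
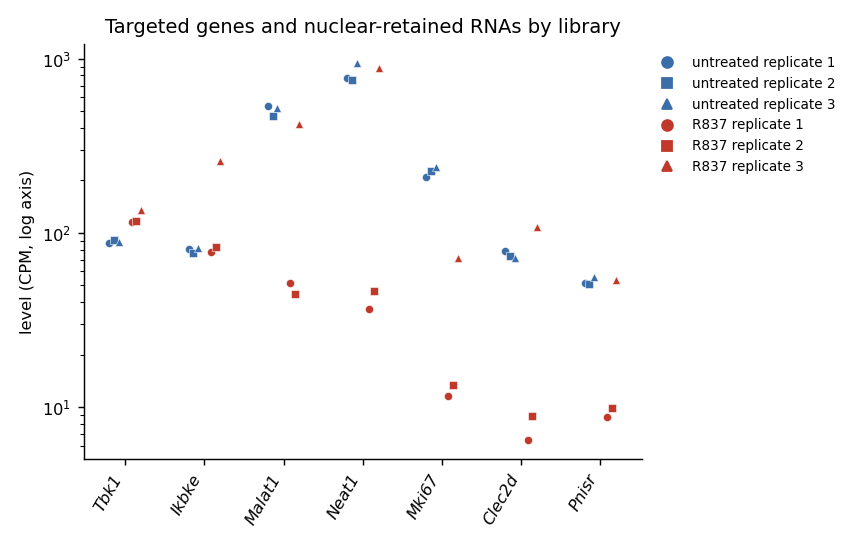
Levels (CPM, log axis) of the targeted genes Tbk1 and Ikbke and of 5 RNAs by which R837 replicate 3 stood apart, in the 6 libraries of TBK1-cKD IKKe knockout; each point is 1 library, blue untreated and red R837, with the shape giving the replicate. R837 replicate 3 (red triangle) lies near the untreated points for Malat1, Neat1 and Pnisr and far above the other R837 points for Ikbke, Malat1, Neat1, Mki67, Clec2d and Pnisr.

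R837 changed a large part of the transcriptome of TBK1-cKD IKKe knockout macrophages. Of 14681 genes tested, 66.5% were called: 4645 rose (31.6%) and 5116 fell (34.8%), with 731 up (4.98%) and 1237 down (8.43%) by 4-fold or more. In 32.7% of the genes all R837 libraries lay above all untreated ones, and in 36.9% below. These shares are the background against which the counts of each gene group are to be read. The median log2 change over all genes was -0.07. On total counts without TMM it was -0.45, and 2646 genes were then called higher and 7887 lower, so changes near 0 depend on the scaling. Replicate 3 lay beyond all 3 untreated libraries in 4474 of the 4645 genes called higher (96.3%) and 5002 of the 5116 called lower (97.8%). Since replicate 3 was itself in the fit that called these genes, the shares describe it and are no independent check.

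Many of the largest rises were of genes for secreted proteins. Csf3, which encodes the granulocyte growth factor G-CSF, had no count in any untreated library and 59.2, 64.2 and 76.3 CPM after R837. Set against a group floor of 3 counts, that is at least 2190-fold higher. Draxin and the noncoding gene U90926 were likewise at 0 counts without R837, and rose at least 2150-fold and at least 2140-fold. Il6, a cytokine of the acute phase, went from 2 counts in all 3 untreated libraries together to 192, 199.5 and 163 CPM, a ratio of 8970 with a 95% counting interval of 2480 to 74100. Lcn2 (chr2:32384633-32388252), encoding the iron-sequestering protein lipocalin-2, had 0.244, 0 and 0.0588 CPM without R837 and 790.4, 882 and 904 CPM with it, a log2 change of 12.85 ± 0.27, or 14.51 without untreated replicate 1. All R837 libraries were above all untreated ones for each of these genes. The rule that named the largest rises required this, so it is no check on replicate 3. Il19, a cytokine of the interleukin-10 family, had a ratio of 1740 (counting interval 480.0 to 14300), and Il1f6 (interleukin-36 alpha) a ratio of 1440 (258 to 57000). Nrg1, the growth factor neuregulin 1, had a ratio of 896 (248 to 7410) and Acat3 of 875 (242 to 7230), each from 2 counts in the untreated libraries together. Among the largest falls were Rasgrp3 (chr17:75435896-75529054), a Ras and Rap activator, and Slco2b1, an organic anion transporter that marks resident macrophages. Rasgrp3 had 72.8, 76.2 and 76.5 CPM without R837 and 0.151, 0.271 and 0.116 CPM with it (log2 change -8.70 ± 0.21, and -9.29 among the high libraries). Slco2b1 went from 60.2, 59.2 and 51.4 to 0.681, 0.508 and 0.231 CPM (-6.95 ± 0.30, and -7.91 among the high libraries). Rgs2, which shortens G protein signals, fell from 255, 271 and 274 to 4.65, 4.78 and 4.10 CPM (-5.89 ± 0.08), with little spread in either group. Gpr34, a lysophospholipid receptor of resident macrophages and microglia, went from 27.8, 27.8 and 25.6 to 0.568, 0.474 and 0.289 CPM (-5.96 ± 0.24). Plau, the plasminogen activator urokinase, went from 604, 693 and 749 to 14, 14 and 12.8 CPM (-5.65 ± 0.15). The other genes with the largest falls were Gm15513 (-6.59 ± 0.44, -7.18 without replicate 3 and -5.93 among the high libraries), Etl4 (-5.99 ± 0.28), Cd28 (-5.65 ± 0.15), Zfyve28 (-5.54 ± 0.26), Tns1 (-5.45 ± 0.21), Nanos1 (-5.38 ± 0.20) and Dnmt3aos (-5.35 ± 0.25), the last a gene antisense to Dnmt3a, which unstranded counts cannot separate from it. For each of these falls no R837 library reached the untreated range, which the rule that named them required.

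**Figure D2:**
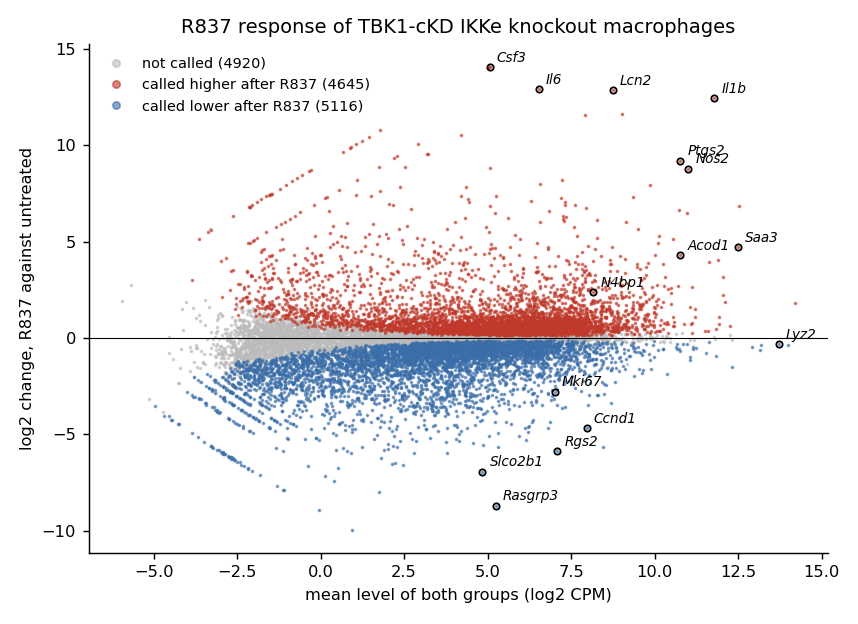
Log2 change of R837 against untreated (vertical) by mean level of both groups (horizontal, log2 CPM) for the 14681 genes tested in TBK1-cKD IKKe knockout macrophages; each point is 1 gene, red for the 4645 called higher, blue for the 5116 called lower and grey for the rest. Named points show that Il1b, Saa3, Ptgs2 and Nos2 combined large rises with high levels, while Lyz2 was abundant and changed by -0.34 ± 0.12 (not called without untreated or R837 replicate 1, and -0.06 with the level of Malat1 and Neat1 as a term).

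Genes that carry the TLR7 signal moved in both directions. Of 25 genes for the receptor and its proximal signalling, 12 rose (48%), 8 fell (32%) and 5 were not called, with a median log2 change of 0.18 (-0.21 on total counts). Over all genes 31.6% rose and 34.8% fell. Tlr7 itself had 215, 198 and 198 CPM without R837 and 259.5, 232 and 184 CPM with it; the groups overlapped and the change was not called (0.14 ± 0.12, edgeR adjusted p = 0.279; 0.27 and called without replicate 3). Myd88, the shared adaptor, rose from 100.4, 98.5 and 99.4 to 319, 311 and 258 CPM (1.57 ± 0.08). Irak2, a kinase that sustains the signal, rose with a log2 change of 1.26 ± 0.07, and Map3k8, the kinase Tpl2 that leads to ERK, with 2.55 ± 0.08. Irf5, a transcription factor that acts with MyD88, fell from 288, 288 and 281 to 181, 181 and 186 CPM (-0.64 ± 0.05). The receptors for other ligands differed too: Tlr2, for bacterial lipoproteins, changed by 2.40 ± 0.16, Tlr4, for lipopolysaccharide, by -0.34 ± 0.09, Tlr9, for unmethylated DNA, by -1.99 ± 0.12, and Tlr13, for bacterial ribosomal RNA, by -1.68 ± 0.09, all called.

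The IkB kinase family, its adaptors and the N4BP1-caspase-8 axis rose for the most part. Of 14 genes, 11 rose, 1 fell (Fadd) and 2 were not called (Optn and Ripk1), with a median of 0.72; Ikbke is counted among the 11. N4bp1 had 95.3, 90.0 and 90.8 CPM in the untreated libraries and 468, 468 and 502 CPM after R837, a log2 change of 2.38 ± 0.06. Casp8, the protease known to cleave N4BP1, had 79.2, 76.6 and 76.7 and then 139.5, 128 and 119.8 CPM (0.74 ± 0.06). Cflar, encoding the caspase-8 partner cFLIP, rose more, with 157, 155 and 154 CPM against 603, 595 and 787 CPM (2.09 ± 0.10). None of these 3 genes had overlapping groups. Tank, an adaptor of TBK1 and IKKe, changed by 0.71 ± 0.06. Ikbkb, the kinase IKKb, changed by 0.57 ± 0.10, or by 0.18 (edgeR adjusted p = 0.163) on total counts.

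**Figure D3:**
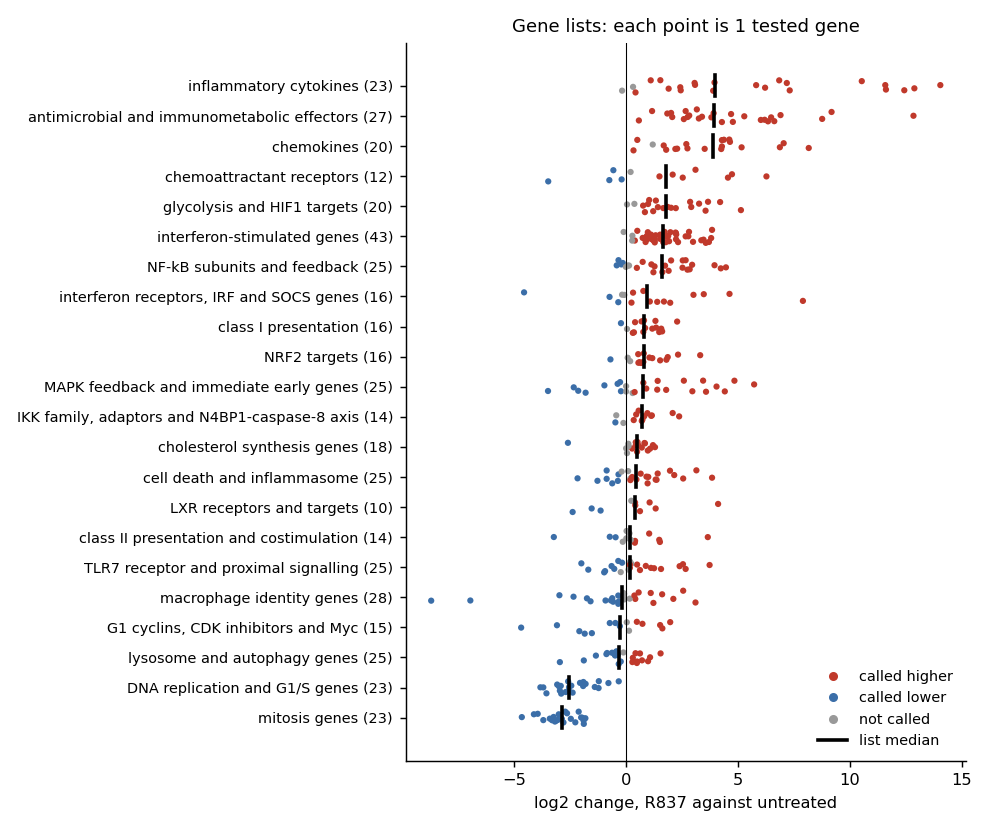
Log2 change of R837 against untreated for every tested gene of 22 gene lists, ordered by list median (black bar), with the number tested in parentheses; red points were called higher, blue called lower and grey not called. Cytokines, effectors and chemokines lie farthest to the right with medians of 3.96, 3.92 and 3.89, and mitosis genes farthest to the left with -2.86.

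Subunits of NF-kB and the genes that limit it rose in 18 of 25 cases and fell in 4 (Cyld, Otulin, Rbck1 and Birc2), with a median of 1.63. Nfkbia encodes IkBa, which holds NF-kB in the cytoplasm and is itself a target of NF-kB. Its level was 149, 139 and 134 CPM without R837 and 999, 1006 and 1029 CPM with it, a log2 change of 2.85 ± 0.07. Nfkbiz, a nuclear IkB protein needed for secondary response genes such as Il6 and Lcn2, rose from 19, 20.3 and 19.6 to 462, 449.6 and 397 CPM (4.47 ± 0.09). The brakes Tnfaip3 (A20) and Zc3h12a (Regnase-1, a ribonuclease of cytokine mRNAs) had log2 changes of 2.96 ± 0.08 and 3.96 ± 0.07. Nfkb2, the precursor of the noncanonical subunit p52, changed by 1.91 ± 0.05. Rel had 71.9, 73.8 and 69.3 CPM and then 64.7, 69.8 and 80.6 CPM, overlapping groups, no call and a fitted change under 0.01 in size. On total counts its change was -0.38 and called. With the level of Malat1 and Neat1 as a term it was 0.19 and called, and among the high libraries 0.19.

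Inflammatory cytokines rose as a group: 21 of 23 tested genes rose and none fell, Il15 and Csf1 not being called, with a median log2 change of 3.96. Il1b, the precursor of interleukin-1 beta, had 1.41, 1.49 and 0.941 CPM without R837 and 7131, 7557 and 6523 CPM with it. The groups did not overlap, and the log2 change was 12.44 ± 0.20 (edgeR adjusted p = 4.37e-21). Per length, Il1b had a mean of 3891 ± 211 RPKM (SD, n = 3) after R837, the 4th highest of all genes, and 0.901 RPKM without it, the 11208th. Its relative Il1a went from 0.326, 0.260 and 0.382 to 1111, 1121 and 887 CPM (11.62 ± 0.19). Il12b, the p40 subunit shared by interleukins 12 and 23, went from 0.217, 0.0744 and 0.147 to 524, 521 and 406 CPM (11.59 ± 0.25). For all 3 genes replicate 3 was the lowest of the R837 libraries and still far above every untreated library. Tnf had a basal level of 50.6, 51.2 and 49 CPM and reached 257, 271 and 296 CPM (2.45 ± 0.08), a far smaller change. Il10, the anti-inflammatory cytokine, had 2.03, 1.49 and 2.12 CPM and then 32.4, 26.6 and 26.4 CPM (3.90 ± 0.12). Csf2 was not tested: it had 0 counts without R837 and 3, 3 and 8 counts with it.

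Chemokines rose too, with 19 of 20 genes higher, none lower and Ppbp not called. Their median was 3.89, or 3.71 with genes at 0 counts set to their lower bound. Cxcl1, a chemoattractant of neutrophils, had 2.55, 2.19 and 2.38 CPM without R837 and 300.2, 333 and 318 CPM with it (7.05 ± 0.12). Cxcl2 rose from 17.6, 17.6 and 15 to 495, 561 and 755 CPM (5.17 ± 0.20). Ccl5, which attracts T cells and monocytes, had a basal level of 114, 95 and 87.8 CPM and reached 1649, 1869 and 2316 CPM (4.29 ± 0.21), highest in replicate 3. Ccl2, the ligand of CCR2, rose by less, from 39.6, 43.5 and 48.1 to 242, 215 and 185 CPM (2.29 ± 0.13). Ccl22, a ligand of CCR4, changed by 4.65 ± 0.23, and Cxcl10, a ligand of CXCR3 that interferons induce, by 1.80 ± 0.27. Of 12 chemoattractant receptors, 7 rose (58.3%), 4 fell (33.3%) and C5ar1 was not called, against 31.6% and 34.8% of all genes. Fpr1, a receptor for formyl peptides of bacteria, rose from 3.72, 4.95 and 3.76 to 348, 347 and 265 CPM (6.28 ± 0.17). Cxcr4 fell from 257, 251 and 239 to 21.4, 25 and 21.1 CPM (-3.47 ± 0.08), and Ccr2 from 24.2, 26 and 22.3 to 14.8, 14.7 and 13.9 CPM (-0.74 ± 0.08). Cx3cr1, the fractalkine receptor, changed by -0.19 ± 0.08 (called with all libraries, and not without untreated replicate 2 or 3 or R837 replicate 3, from -0.17 to -0.13).

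Promoters of 3 of these genes are shown because they hold NF-kB motifs. Each line gives 300 bases of RefSeq sequence (GRCm38.p6), read 5′ to 3′ on the gene's strand, from before the start site to 50 bases after it, with matches to the letters GGGA, NNNN and CC in a row on either strand in capitals, overlapping matches running together. Il6 (chr5:30012864-30013163, plus strand) holds 2 matches, Cxcl1 (chr5:90890995-90891294, plus strand) 3, and Nfkbia (chr12:55492598-55492897, minus strand) 2.
Il6: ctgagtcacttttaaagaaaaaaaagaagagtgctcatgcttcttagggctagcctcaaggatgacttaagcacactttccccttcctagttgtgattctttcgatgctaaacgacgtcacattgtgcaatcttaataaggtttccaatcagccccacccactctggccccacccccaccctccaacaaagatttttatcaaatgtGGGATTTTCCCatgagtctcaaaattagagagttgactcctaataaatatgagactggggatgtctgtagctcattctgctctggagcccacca
Cxcl1: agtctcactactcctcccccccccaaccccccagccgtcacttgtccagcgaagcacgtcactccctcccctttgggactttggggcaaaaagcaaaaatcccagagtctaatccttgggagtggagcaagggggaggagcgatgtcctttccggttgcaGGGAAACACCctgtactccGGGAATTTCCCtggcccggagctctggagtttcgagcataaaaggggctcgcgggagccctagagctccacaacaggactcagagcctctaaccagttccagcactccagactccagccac
Nfkbia: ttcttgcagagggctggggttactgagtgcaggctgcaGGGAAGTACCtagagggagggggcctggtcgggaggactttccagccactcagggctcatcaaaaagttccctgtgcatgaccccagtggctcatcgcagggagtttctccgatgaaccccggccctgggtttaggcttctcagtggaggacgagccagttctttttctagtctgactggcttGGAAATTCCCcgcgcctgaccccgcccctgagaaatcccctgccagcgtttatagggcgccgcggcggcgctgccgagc
The motif stood in 26.3% of the 10116 tested genes that have a promoter in the table (first listed start of each gene), in 8 of 16 cytokine promoters (50%) and in 6 of 13 chemokine promoters (46.2%). Among genes called higher by 4-fold or more it stood in 165 of 505 (32.7%), and among those called lower by 4-fold or more in 227 of 838 (27.1%). The AP-1 motif TGANTCA stood in 5.21% of all promoters, in 12.5% of the first set and in 6.56% of the second. A match is a description of the letters and says nothing of binding.

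**Figure D4:**
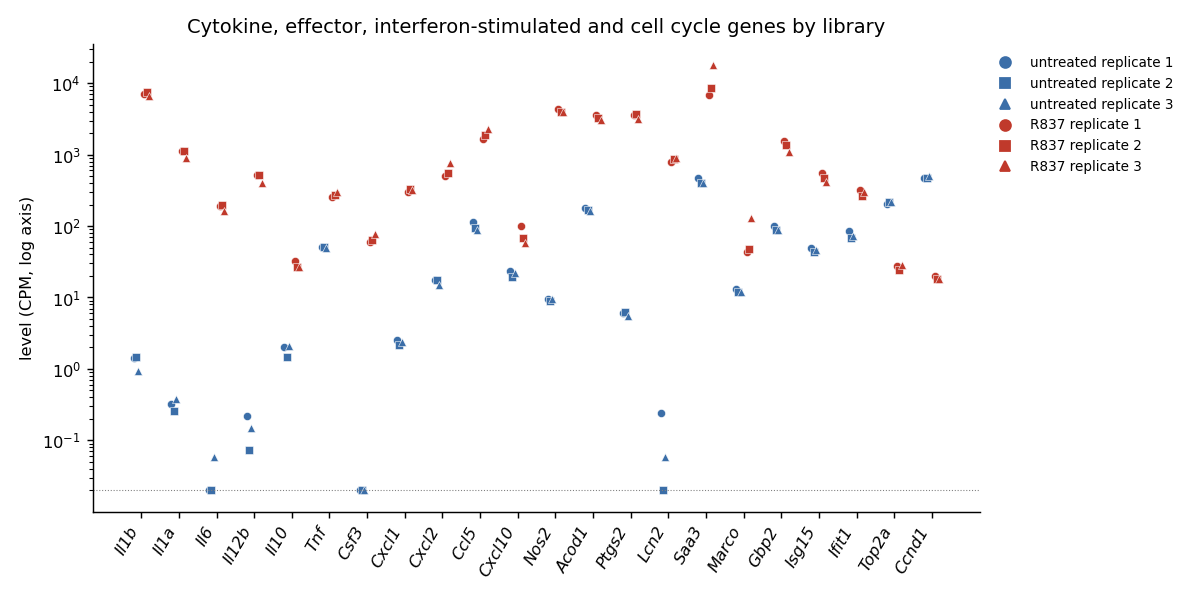
Levels (CPM, log axis) of 22 cytokine, chemokine, effector, interferon-stimulated and cell cycle genes in the 6 libraries; each point is 1 library, blue untreated and red R837, with the shape giving the replicate, and values at 0 are drawn on the dotted line. Red and blue points do not overlap for any gene shown, with red above blue except for Top2a and Ccnd1, and replicate 3 stands farthest above the other R837 libraries for Saa3 and Marco.

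Interferon-stimulated genes rose in these cells, which are labelled as altered in both kinases that phosphorylate IRF3. Of 43 genes, 40 rose, none fell and 3 were not called (Ifit3b, Oas2 and Slfn5), with a median log2 change of 1.67 (1.40 among the high libraries). Ifit1, an RNA-binding inhibitor of viral translation, had 84.2, 68.4 and 73.6 CPM without R837 and 324, 268 and 304 CPM with it (1.99 ± 0.22). Isg15, a ubiquitin-like modifier, went from 49, 43.8 and 45.6 to 549.6, 475 and 409 CPM (3.37 ± 0.18). Gbp2, a guanylate-binding protein of host defence whose counts may be shared with related Gbp genes, went from 101, 87.7 and 87 to 1542, 1352 and 1087 CPM (3.85 ± 0.15). For Isg15 and Gbp2 replicate 3 was the lowest R837 library and still above every untreated one. Irf7, a factor that amplifies the interferon response, changed by 1.73 ± 0.19, and Rsad2 (viperin) by 1.53 ± 0.23. Ifnb1, the gene of interferon beta itself, was not tested, having 0, 0 and 2 counts without R837 and 2 counts in each R837 library. Of 16 genes for interferon receptors, IRF and SOCS proteins, 11 rose (68.8%), 3 fell (18.8%; Ifngr1, Irf4 and Tyk2) and 2 were not called. Over all genes 31.6% rose and 34.8% fell. Socs3, a cytokine-induced brake on JAK-STAT signalling, rose from 8.30, 7.85 and 7.0 to 1980, 1920 and 1671 CPM (7.91 ± 0.14). Irf8, a factor of myeloid development, changed by 0.32 ± 0.06, or by -0.07 and not called on total counts. Irf1 had 146, 129 and 129 CPM and then 121, 110.0 and 128 CPM and was not called (-0.17 ± 0.10, edgeR adjusted p = 0.152).

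Promoters of Isg15 (chr4:156200769-156201068, minus strand) and Ifit1 (chr19:34640639-34640938, plus strand) are shown as members of this group that hold the interferon response motif, the letters GAAA, NN and GAAA in a row on either strand, in capitals, from the same source. Isg15 has 3 matches, which overlap, and Ifit1 has 2.
Isg15: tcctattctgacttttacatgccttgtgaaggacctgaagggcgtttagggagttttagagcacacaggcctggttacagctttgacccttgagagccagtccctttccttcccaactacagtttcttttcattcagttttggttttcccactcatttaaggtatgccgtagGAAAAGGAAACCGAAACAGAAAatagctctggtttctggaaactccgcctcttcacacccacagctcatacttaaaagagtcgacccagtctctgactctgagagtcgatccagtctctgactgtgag
Ifit1: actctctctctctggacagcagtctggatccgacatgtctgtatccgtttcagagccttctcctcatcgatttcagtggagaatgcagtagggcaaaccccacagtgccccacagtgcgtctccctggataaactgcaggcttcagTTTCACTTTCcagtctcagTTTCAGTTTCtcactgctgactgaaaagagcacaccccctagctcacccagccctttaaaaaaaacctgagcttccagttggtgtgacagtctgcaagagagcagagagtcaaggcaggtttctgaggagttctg
The motif stood in 3.27% of all promoters, in 21 of the 33 promoters of the interferon-stimulated list (63.6%), and in 39 of 505 genes called higher by 4-fold or more (7.72%). Among genes called lower by 4-fold or more it stood in 24 of 838 (2.86%).

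All 27 antimicrobial and immunometabolic effectors rose, 26 of them by at least 2-fold, with a median of 3.92. Nos2, which makes nitric oxide, had 9.57, 9.07 and 9.47 CPM without R837 and 4397, 3953 and 3948 CPM with it (8.77 ± 0.17). Ptgs2 (cyclooxygenase 2, the first step to prostaglandins) went from 6.13, 6.25 and 5.56 to 3619, 3719 and 3108 CPM (9.19 ± 0.12). The R837 libraries of both genes lay close together. Acod1 (chr14:103046977-103056573), which makes the antibacterial metabolite itaconate, started from 179.5, 165 and 161 CPM and reached 3554, 3307 and 3057 CPM (4.29 ± 0.11). The acute phase protein gene Saa3 (chr7:46711998-46715700, with related Saa copies nearby) went from 466, 405 and 403 to 6863, 8489 and 17850 CPM. Its replicate 3 was the highest library, and the log2 change of 4.70 ± 0.38 was 4.18 without it and 5.41 among the high libraries. Marco, a scavenger receptor for bacteria, likewise had 43.7, 48 and 129 CPM after 13.2, 11.8 and 11.9 CPM (2.59 ± 0.42, or 1.90 without replicate 3 and 3.41 among the high libraries).

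Cell death and inflammasome genes were mixed, with 15 of 25 higher (60%), 7 lower (28%) and 3 not called, and a median of 0.47, against 31.6% and 34.8% of all genes. Nlrp3, the sensor of the best known inflammasome, rose from 54.5, 54.1 and 53.9 to 800.3, 802 and 734 CPM (3.85 ± 0.07). Mlkl, the executioner of necroptosis, rose from 20.9, 19.7 and 21.8 to 83, 74.4 and 88.2 CPM (1.97 ± 0.13). Casp4 (caspase-11, which detects cytosolic lipopolysaccharide) and Gsdmd (the pore-forming gasdermin D) had log2 changes of 2.16 ± 0.09 and 1.0 ± 0.06. The survival gene Bcl2 fell from 14.3, 15 and 16.4 to 2.95, 3.32 and 3.90 CPM (-2.16 ± 0.17). Of 25 MAPK feedback and immediate early genes, 14 rose and 8 fell. Dusp1, a phosphatase of p38 and JNK, changed by 2.97 ± 0.08 and Junb by 1.42 ± 0.09, while Egr1 fell from 10.9, 9.71 and 12 to 1.97, 4.03 and 3.32 CPM (-1.80 ± 0.24).

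Genes of S phase and mitosis fell. All 23 genes of DNA replication and G1/S fell, with a median of -2.54, and all 23 mitosis genes fell, with a median of -2.86, against 34.8% of all genes. Mcm5, a subunit of the replicative helicase, had 116, 115 and 121 CPM without R837 and 35.8, 32.1 and 26.3 CPM with it (-1.90 ± 0.10). Rrm2, a subunit of ribonucleotide reductase, fell from 52.4, 60.8 and 59.9 to 8.93, 7.52 and 5.40 CPM (-2.99 ± 0.16). Pcna, the sliding clamp of DNA polymerase, changed by -1.22 ± 0.13 and E2f1, a factor of the G1/S transition, by -0.32 ± 0.06. Top2a, topoisomerase II alpha of dividing cells, fell from 205, 219 and 220.0 to 27.4, 24.6 and 28.6 CPM (-3.0 ± 0.12). The 3 R837 libraries lay together below the untreated ones for these genes. Mki67 fell from 209, 226 and 238 to 11.5, 13.4 and 71.6 CPM, with replicate 3 far above the other R837 libraries. Its log2 change of -2.79 ± 0.64 was -4.16 without replicate 3 and -1.63 among the high libraries. The mitosis list had medians of -2.70, -3.03 and -3.0 in replicates 1, 2 and 3. Among cyclins and their regulators, Ccnd1 (cyclin D1) fell from 465, 475 and 500.4 to 20.2, 18.3 and 17.9 CPM (-4.68 ± 0.08), and Ccnd2 (cyclin D2) rose from 16.6, 19.5 and 18.6 to 83.1, 69.9 and 63.7 CPM (1.98 ± 0.12). Cdk1 changed by -1.88 ± 0.11. Myc, a driver of growth, changed by -2.08 ± 0.10 and Cdkn1a, the inhibitor p21, by 1.53 ± 0.09.

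Promoters of Top2a (chr11:99024140-99024439, minus strand) and Cdk1 (chr10:69352863-69353162, minus strand), the gene of the mitotic kinase, show the CHR motif TTTGAA, the element that the DREAM and MuvB complexes are known to bind. Each holds 2 CHR matches, on either strand, and 1 match to the NF-kB motif, all in capitals.
Top2a: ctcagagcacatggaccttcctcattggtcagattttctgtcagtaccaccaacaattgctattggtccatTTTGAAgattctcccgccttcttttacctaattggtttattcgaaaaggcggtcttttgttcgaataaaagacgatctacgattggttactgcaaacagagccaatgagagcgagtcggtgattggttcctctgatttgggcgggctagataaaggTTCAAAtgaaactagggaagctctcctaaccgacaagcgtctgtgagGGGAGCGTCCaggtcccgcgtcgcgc
Cdk1: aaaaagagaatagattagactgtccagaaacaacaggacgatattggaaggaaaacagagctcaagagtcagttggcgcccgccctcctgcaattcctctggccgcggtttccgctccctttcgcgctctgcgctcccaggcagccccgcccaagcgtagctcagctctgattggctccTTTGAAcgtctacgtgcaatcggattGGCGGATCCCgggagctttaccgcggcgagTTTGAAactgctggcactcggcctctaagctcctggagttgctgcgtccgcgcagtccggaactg
The CHR motif stood in 12.2% of all promoters, in 12 of 18 mitosis promoters (66.7%) and in 1 of 19 promoters of the DNA replication and G1/S list (5.26%). It stood in 151 of 838 genes called lower by 4-fold or more (18%) and in 69 of 505 called higher by 4-fold or more (13.7%).

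Macrophage identity genes moved in both directions: of 28, 9 rose (32.1%), 13 fell (46.4%) and 6 were not called, with a median of -0.16. Over all genes tested 31.6% rose and 34.8% fell, with a median of -0.07, so this mix is not far from that of all genes. Csf1r, the receptor of M-CSF, had 2653, 2532 and 2452 CPM without R837 and 3328, 3515 and 3101 CPM with it (0.38 ± 0.06, but -0.01 and not called on total counts). Adgre1 changed by 1.11 ± 0.06 and the scavenger receptor Msr1 by 2.56 ± 0.05. Cebpb, a transcription factor of activated macrophages, rose from 37.5, 38.1 and 40.8 to 343, 347 and 316 CPM (3.11 ± 0.11). Mertk, a receptor for apoptotic cells, went from 94.8, 89.4 and 86.6 to 16.8, 15.2 and 21.5 CPM (-2.34 ± 0.15) and the lipid receptor Trem2 from 1051, 1000 and 1005 to 678, 594 and 358 CPM (-0.91 ± 0.17, and -1.49 among the high libraries). C1qa, a chain of complement C1q, was not called (-0.20 ± 0.14). Its change was -0.62 and called with the level of Malat1 and Neat1 as a term, -0.60 and called on total counts, and -0.62 among the high libraries. Of 25 lysosome and autophagy genes, 10 rose and 14 fell, with a median of -0.32. Atp6v0d2, a subunit of the proton pump of the lysosome, fell from 539.6, 548 and 548 to 80.8, 72.9 and 57.9 CPM (-2.95 ± 0.09). Ctsd, a lysosomal protease, changed by -0.37 ± 0.10, Ulk1, the kinase that starts autophagy, by -0.42 ± 0.08, and Sqstm1, the autophagy receptor p62, by 0.99 ± 0.06.

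Genes of glycolysis rose. Of 20 genes of glycolysis and HIF1 targets, 18 rose, none fell and Hk3 and Pdk1 were not called, with a median of 1.77. Hif1a, the transcription factor, had 118, 118 and 118 CPM without R837 and 1473, 1378 and 1312 CPM with it (3.56 ± 0.05). The glucose transporter gene Slc2a1 rose from 104, 123 and 143 to 1706, 1669 and 1340 CPM (3.67 ± 0.37), and Hk2 (hexokinase 2) and Ldha (lactate dehydrogenase A) changed by 2.92 ± 0.28 and 2.02 ± 0.17. Of 16 NRF2 targets, which answer to oxidative stress, 13 rose and 1 fell, with a median of 0.79. Gclm, a subunit of the enzyme that starts glutathione synthesis, changed by 2.33 ± 0.11, and Txnrd1 and Srxn1, which reduce thioredoxin and peroxiredoxins, by 1.87 ± 0.07 and 1.53 ± 0.06. Of 18 cholesterol synthesis genes 13 rose and Dhcr7 fell, with a median of 0.51 (0.12 on total counts). Of 10 LXR receptors and targets, 6 rose (60%) and 3 fell (30%; Abcg1, Mylip and Lpl), with a median of 0.42, against 31.6% and 34.8% of all genes. Nr1h3, the receptor LXRa, changed by 1.33 ± 0.07. Exporters of cholesterol diverged: Abca1 rose from 966, 995 and 952 to 2001, 2098 and 1962 CPM (1.06 ± 0.06) and Abcg1 fell from 331, 317 and 309 to 63.1, 61.2 and 59.5 CPM (-2.38 ± 0.09). Ch25h, which makes 25-hydroxycholesterol, rose from 4.29, 4.05 and 3.59 to 79.8, 66.9 and 61 CPM (4.12 ± 0.21).

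Antigen presentation genes of class I rose in 14 of 16 cases, Pdia3 falling and Calr not being called, with a median of 0.83. Tap1, a peptide transporter, had 146, 132 and 134 CPM without R837 and 419.6, 358 and 276 CPM with it (1.35 ± 0.13). Psmb9, an immunoproteasome subunit, changed by 0.86 ± 0.12, and H2-K1 by 0.78 ± 0.09; its counts may be shared with other class I genes. Of 14 genes of class II and costimulation, 6 rose (42.9%), 3 fell (21.4%) and 5 were not called, against 31.6% and 34.8% of all genes. Ciita, the class II master regulator, fell from 8.57, 8.85 and 8.06 to 0.454, 0.847 and 1.36 CPM (-3.22 ± 0.31, and -2.62 among the high libraries), while H2-Ab1, a class II chain, rose from 86.4, 74.8 and 70.9 to 164, 168 and 144 CPM (1.04 ± 0.11). Cd74, the invariant chain, changed by 0.40 ± 0.13 (0.31 to 0.33 and not called without R837 replicate 1 or 2 or untreated replicate 3, and 0.07 among the high libraries). Cd274, the inhibitory ligand PD-L1, rose from 102, 103 and 109 to 1248, 1216 and 1514 CPM (3.66 ± 0.15) and Cd86, a costimulatory ligand, changed by 1.52 ± 0.11.

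Markers of other cells moved with R837 in part. The summed level of 12 neutrophil markers was 1.52 to 1.93 CPM without R837 and 123 to 216 CPM with it, nearly all of it S100a8 (chr3:90668978-90670035), which had 1.25, 0.930 and 1.12 CPM and then 119.8, 133 and 213 CPM. Of the 7 neutrophil markers tested, S100a8 and Camp rose and 5 were not called. Camp, the antimicrobial peptide of neutrophil granules, had 0.244, 0.112 and 0.0588 CPM without R837 and 2.84, 2.91 and 2.69 CPM with it (4.27 ± 0.56). S100a9, the partner of S100a8 in neutrophils, had between 0.0757 and 0.177 CPM, Ly6g had 0 counts in all 6 libraries and Elane had at most 2 counts in any. The summed level of 10 mast cell and basophil markers was 1.71 to 1.9 CPM and then 32.5 to 49.1 CPM, with Hdc, which makes histamine, at 31.8 to 48.2 CPM after R837 and Cpa3 at 0 counts in 5 libraries and 1 count in 1 library. Lymphocyte markers summed to 243 to 261 CPM without R837 and 50.1 to 55.9 CPM with it, of which Il7r held 225 to 244 and 46.5 to 54 CPM; Cd3e had at most 1 count in any library. Stromal markers summed to 27.5 to 38.9 and then 59 to 66.1 CPM, with 4 of 11 tested genes higher and 3 lower. Osteoclast markers summed to 1140 to 1150 and then 1620 to 2070 CPM, with 2 of 7 higher and 4 lower. Over all genes 31.6% rose and 34.8% fell. Dendritic cell markers summed to 3.31 to 3.91 and 3.56 to 4.05 CPM, and erythroid and megakaryocyte markers to at most 1.22 CPM in any library. Of 12 mitochondrially encoded genes tested, 2 rose, and the list median was 0.03 (-0.36 on total counts). The part of other cells in these values and in the results for cytokines, chemokines and receptors was not tested.

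The R837 response was compared with that of TBK1-WT control by testing the difference of the 2 log2 changes in the same fit. It differed in 2546 of 14681 genes (17.3%), being higher (more positive) in 1084 (7.38%) and lower in 1462 (9.96%). The response differed from that of TBK1-WT IKKe knockout in 2174 genes (14.8%, with 6.64% higher and 8.17% lower) and from that of TBK1-cKD control in 2670 (18.2%, with 8.09% higher and 10.1% lower). Against TBK1-WT control, the rise of several secreted proteins was larger. Timp1, an inhibitor of matrix proteases, had 3.32, 4.07 and 3.89 CPM untreated and 38.8, 53.4 and 50.5 CPM after R837 in TBK1-WT control. In TBK1-cKD IKKe knockout it had 2.28, 1.52 and 1.76 and then 257, 277 and 333 CPM, a difference of responses of 3.60 ± 0.20 (edgeR adjusted p = 6.36e-11). For Inhba (the activin A subunit) the difference was 4.0 ± 0.34 and for Lcn2 3.85 ± 0.46 (5.51 without untreated replicate 1). Ccnd2 went from 32.1, 36.3 and 36.1 to 11.4, 12 and 12.8 CPM in TBK1-WT control, and rose here (difference 3.51 ± 0.16). Cd24a, a surface glycoprotein, had 17, 18.4 and 16.5 and 1.03, 0.986 and 1.11 CPM in TBK1-WT control but 1.98, 2.75 and 2.21 and 2.27, 2.61 and 2.11 CPM here (4.07 ± 0.24).

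Responses that were lower (less positive) than in TBK1-WT control were often those of genes with a higher untreated level. Acod1 had 0.447, 0.284 and 0.528 CPM in untreated TBK1-WT control and 179.5, 165 and 161 CPM in untreated TBK1-cKD IKKe knockout. After R837 it had 908, 951 and 931 CPM and 3554, 3307 and 3057 CPM, so that both levels were higher here while the difference of the log2 changes was -6.84 ± 0.18 (edgeR adjusted p = 5.14e-16). The same order held for Clec4e, the receptor Mincle, with 6.20, 7.02 and 7.32 and 825, 1080 and 1000 CPM in TBK1-WT control and 479, 446 and 425 and 3125, 3154 and 2346 CPM here (-4.48 ± 0.17). Saa3 and Marco, whose R837 libraries overlapped between the genotypes, had differences of -7.58 ± 0.58 (-8.25 without untreated replicate 3 of TBK1-WT control) and -6.36 ± 0.94 (-7.05 without replicate 3 here, and -5.50 without R837 replicate 1 of TBK1-WT control), and the formyl peptide receptor Fpr2 -5.64 ± 0.35. Nos2 had 0.0426, 0 and 0 CPM in untreated TBK1-WT control, where the R837 libraries had 179, 171 and 166 CPM, against 9.57, 9.07 and 9.47 and 4397, 3953 and 3948 CPM here. Its difference of -4.25 ± 0.57 rests on untreated replicate 1 of TBK1-WT control, the only one there with counts, and was -6.62 without it. Slc13a3, a carrier of dicarboxylates, had 4.77, 4.89 and 5.90 CPM in untreated TBK1-WT control and 24.6, 25.9 and 25.3 CPM in the untreated libraries here. After R837 the order turned, with 265, 280.0 and 296 CPM in TBK1-WT control and 59, 56.9 and 41.3 CPM here. Of the 111 genes with a response lower by 4-fold or more (0.756% of all), 37 were called higher after R837 in both genotypes and 39 lower in both, so that for the latter the fall was the steeper here. Of the same 111, 79 had all untreated libraries above those of TBK1-WT control, with a median untreated difference of 1.48 and a median difference after R837 of -1.30. Of the 107 with a response higher by 4-fold or more (0.729%), 54 had all untreated libraries below, with medians of -0.53 and 2.16. The untreated and R837 levels make up the difference, so these counts describe it and add no support. No share over all genes tested is set beside the counts of untreated libraries above or below.

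By group, the share of responses that differed varied. Over all genes tested 7.38% were higher and 9.96% lower, and the counts below are to be read against these shares. Of 23 mitosis genes, 18 had a lower response than in TBK1-WT control and none a higher one, against 9.96% of all genes lower; the median change was -2.86 here and -1.76 there. Of 23 DNA replication and G1/S genes, 5 were lower and 1 higher. Among 27 effectors 15 were lower and 7 higher, and among 25 NF-kB genes 9 were lower and 2 higher, Nfkbia by -1.22 ± 0.09 with 45, 44 and 51.7 CPM in untreated TBK1-WT control. Cytokines went the other way, with 10 of 23 higher and 1 lower (Tnf, -0.64 ± 0.10). In TBK1-WT control Tnf had 19.1, 20.7 and 19.2 CPM untreated and 184, 156 and 161 CPM after R837, below its levels here in both states. Chemokines did not go with the cytokines: 5 of 20 were higher and 8 lower. Of 12 chemoattractant receptors 2 were higher and 5 lower. The difference for Il1b was 0.89 ± 0.28 (edgeR adjusted p = 0.0292). It was not called without untreated replicate 1 or 3 or R837 replicate 3 of TBK1-WT control, or without untreated replicate 3 or R837 replicate 2 here (adjusted p 0.0501 to 0.195). Nor was it called on total counts (0.77, edgeR adjusted p = 0.0525). Among the high libraries, with 1 R837 library in each genotype, it was 0.72. Among 25 MAPK feedback and immediate early genes 12 were higher and 3 lower. Of the interferon-stimulated genes, 3 of 43 were higher and 2 lower, neither above the share of all genes. Ifit1 had a difference of -0.70 ± 0.30 (edgeR adjusted p = 0.124; 0.022 with the libraries of both genotypes alone). N4bp1 had a difference of -0.13 ± 0.08 (edgeR adjusted p = 0.342) and Casp8 of 0.42 ± 0.08 (adjusted p = 0.000517). The genotypes share no library, and each has 1 R837 library of high Malat1 and Neat1 level.

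**Figure D5:**
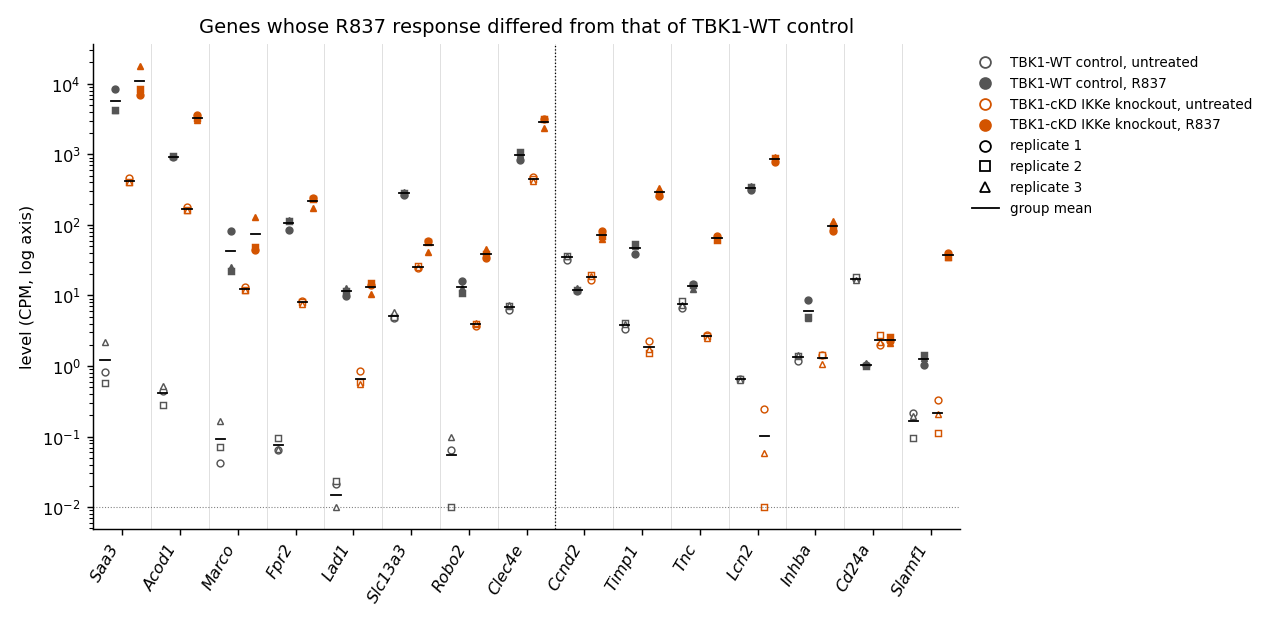
Levels (CPM, log axis) of 15 genes among those with the largest differences of R837 response from TBK1-WT control, 8 lower (left of the dotted vertical line) and 7 higher; each point is 1 library, grey TBK1-WT control and orange TBK1-cKD IKKe knockout, open untreated and filled R837, black bars are group means and values at 0 stand on the dotted horizontal line. On the left the open orange points lie above the open grey ones for all 8 genes, and on the right the filled orange points lie above the filled grey ones for all 7.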

How the data were processed

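RNA of the 24 BMDM libraries, 3 in each of 8 groups, was sequenced in 50 bp reads from a TruSeq kit, per the labels' protocols; its chemistry does not mark strand, so overlapping and antisense genes cannot be told apart. GSNAP and the build GRCm38 are named in the submitters' processing notes. No source used here names the counting program or the annotation. The deposited files give raw read counts per gene, and the counts were used as the authors deposited them. They also give the authors' deposited RPKM, which equal the count over gene width and library total in all 24 files and served here only to rank levels.

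edgeR 4.0.16 (R 4.3.3, limma 3.58.1) fitted all 24 libraries with 1 mean per group, after filterByExpr (minimum count 10, minimum total 15) kept 14681 of 52636 genes, with TMM scaling. Quasi-likelihood p-values were adjusted by Benjamini-Hochberg over all genes tested. The model left 16 residual degrees of freedom and a biological coefficient of variation of 0.116. On counts simulated for the R837 response (14539 genes) the step recovered 43.3, 97 and 100% of changes of 0.5, 1 and 2 (log2), with 6.43% false among its calls. The simulation changed 67, 67 and 66 genes by these sizes, up and down alike, with 1 spread for all genes and no deviating library. In the data 66.5% of genes were called and replicate 3 stood apart, so the simulated false share need not hold there. Rows without a symbol held 0.019% of counts. The named genes are the marked genes of the lists, the 12 largest rises and falls with groups apart and a mean of at least 10 CPM in the higher group, the 8 largest differences each way from TBK1-WT control, and Malat1 and Neat1; a few genes that this rule names are not reported here. The members and lists were chosen with earlier results of these data known. The list genes whose difference from TBK1-WT control is given were also chosen so. The labels give no replicate numbers, so replicates were numbered in accession order and pair nothing. The p-values measure the spread between cultures of 3 mice per group as the protocol describes them, and intervals cover counting error only.

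Alternatives were DESeq2 1.42.0 scaling and its Wald test, total counts, no filter, the libraries of the compared groups alone, the level of Malat1 and Neat1 as a term, the libraries of high level alone, and each library left out in turn. Promoters are RefSeq sequences (GRCm38.p6), matched by symbol for 10116 of 14681 tested genes. Gene coordinates are those of GENCODE on GRCm38.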

Additional observations from a re-analysis of the deposited data

Results flagged for a closer look

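The R837 responses of the 29 genes listed here differed from that of TBK1-WT control by a test of the difference itself in edgeR (adjusted over all genes tested, 3 libraries in each of the 4 groups). Of the 129 named genes, 72 were called for this difference. The 29 are those among the largest differences and list genes chosen with the results known, and the other 43 are not listed. The values are log2 differences, the response of TBK1-cKD IKKe knockout minus that of TBK1-WT control. The response was more positive at Slamf1 (4.47, a receptor of the SLAM family), Cd24a (4.07), Inhba (4.0), Lcn2 (3.85), Tnc (3.73, the matrix protein tenascin C), Timp1 (3.6) and Ccnd2 (3.51). It was less positive at Saa3 (-7.58), Acod1 (-6.84), Marco (-6.36), Fpr2 (-5.64), Lad1 (-4.82), Slc13a3 (-4.71), Robo2 (-4.62) and Clec4e (-4.48). In untreated TBK1-WT control the means of Marco, Fpr2, Lad1 and Robo2 were 0.0928, 0.0748, 0.015 and 0.0543 CPM, so the size of these differences rests on few counts. After R837 Fpr2, Lad1 and Robo2 had means of 105.3, 11.44 and 13.25 CPM in TBK1-WT control and 216.1, 13.3 and 39.01 CPM here. Cd24a had 17, 18.4 and 16.5 CPM untreated and 1.03, 0.986 and 1.11 CPM after R837 in TBK1-WT control, and 1.98, 2.75 and 2.21 and 2.27, 2.61 and 2.11 CPM here.

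Among cytokines and chemokines the difference was 0.89 for Il1b, 0.64 for Il10 and 1.39 for Ccl2, and -0.64 for Tnf, -1.9 for Cxcl10, -3.76 for Ccl5 and -0.94 for Ccl22. For Tnf, Cxcl10, Ccl5 and Ccl22 every untreated library here lay above those of TBK1-WT control. After R837 Tnf and Ccl5 were also higher here, and the libraries overlapped for Cxcl10 and Ccl22. Ccl5 had 1.49, 1.37 and 3.66 CPM untreated and 603, 520 and 534 CPM after R837 in TBK1-WT control. The values for Il1b, Gbp2 (-0.6) and Ccl22 were not called when some single libraries were left out, with adjusted p up to 0.195, 0.101 and 0.152. Nos2 (-4.25) and Nfkbia (-1.22) had less positive log2 responses, and Mlkl (1.11) and Casp8 (0.42) more positive ones. Nos2 had 0.0426, 0 and 0 CPM in untreated TBK1-WT control, so the size of its difference rests on few counts. After R837 Nos2 had 179, 171 and 166 CPM there and 4400, 3950 and 3950 CPM here. Nfkbia was also higher here in both states. Csf1r differed by -0.5. Ikbke differed by -1.45, and by -2.26 without R837 replicate 3; the call was lost without R837 replicate 2 (-1.18, adjusted p = 0.0503) and with the libraries of both genotypes alone (adjusted p = 0.127).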

How the results depend on the processing

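Counts of calls depended most on the scaling and on how the level of Malat1 and Neat1 was treated. On total counts without TMM, 2646 genes were called higher and 7887 lower after R837; the response was called higher than in TBK1-WT control in 715 and lower in 2364, lower than in TBK1-WT IKKe knockout in 1916, and lower than in TBK1-cKD control in 2405. With the level of Malat1 and Neat1 as a term, the response was called higher than in TBK1-WT control in 1991 genes and lower in 2429, higher than in TBK1-WT IKKe knockout in 1557 and lower in 1865, and higher than in TBK1-cKD control in 1912. With libraries of high level alone it was called higher than in TBK1-WT control in 1673 genes, and with the libraries of the compared groups alone higher than in TBK1-cKD control in 753. DESeq2's Wald test called 9855 genes for the response, 9615 of them shared with the 9761 called by edgeR. Leaving out single libraries gave 4348 to 4764 genes called higher and 4633 to 5633 called lower for the response. For the differences it gave 878 to 1445 higher and 1200 to 1666 lower against TBK1-WT control, 745 to 1055 and 976 to 1241 against TBK1-WT IKKe knockout, and 943 to 1320 and 1210 to 1564 against TBK1-cKD control.

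Of the tests of named genes over all alternatives, 13 of the R837 response and 3 of its difference from TBK1-WT control changed sign, 31 and 27 lost the call and 8 and 3 gained it, against 1493 and 651 that kept direction and side of the threshold. On total counts the response was -0.01 for Csf1r, -0.07 for Irf8, -0.25 for Tlr7 and -0.38 for Rel, and the difference for Tbk1 was -0.01. With the level as a term it was -0.14 for Tlr7, 0.05 for Irf1 and 0.13 for Neat1, and with the high libraries alone -0.13 for Tlr7 and 0.11 for Neat1. For Rel it was -0.01 without a count filter and -0.01 in the libraries of the compared groups alone, and -0.09 to 0.07 leaving out single libraries. The difference for Il12b, whose untreated counts are near 0, ran from -1.94 to 0.14 leaving out single libraries. The cause of these changes was not tested. No paired analysis was possible because the labels give the libraries no replicate numbers. Depth was 24.8 to 40.3 M counts per library, and genes with few counts in the untreated group, such as Csf3, Il6, Lcn2 and Il12b, carry large errors in their fold changes.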

Other observations

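The order of transcripts by level per length (RPKM, mean ± SD over the 3 R837 libraries) was led by Fth1, the ferritin heavy chain that stores iron, with 25010 ± 4230. Lyz2 (lysozyme, 6756) and B2m (beta-2-microglobulin, 4220) followed, then Il1b with 3891 ± 211. Cd14, a co-receptor of Toll-like receptors (3432), Il1rn, the interleukin-1 receptor antagonist (3249), Tmsb4x, the actin-binding thymosin beta 4 (3231), and Saa3 (3198 ± 1790) came next.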
